A study of Homo sapiens with 10 samples.

Results

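The genes described here encode the proteins of the mitochondrial ribosome. Every gene whose symbol begins with MRPL (large subunit) or MRPS (small subunit) was taken from the deposited table of ribosome footprint and mRNA values, which gave 47 of the 6914 genes with intact names, 32 MRPL and 15 MRPS. The rule used the symbol and no measured value, but it was set with earlier results of these data known. Having a row may itself depend on level, as all control values in the table were at least 0.5. The cells were HCT116, an established human colorectal carcinoma line. Ribosome profiling and mRNA-seq each had 1 control library, which carried a short hairpin RNA against GFP, and 2 libraries in which the m6A reader YTHDF1 was knocked down with hairpin RNAs. The titles call the knockdown libraries shY1-1 and shY1-2, here knockdown 1 and knockdown 2, while the genotype field gives shY1 for both, so they may be different hairpins or repeats of 1 hairpin. YTHDF1 immunoprecipitation of bound RNA (RIP, 1 library with 1 input) and m6A-seq (2 replicates) came from control cells. All 10 samples carry a label of cycloheximide, which halts elongating ribosomes, at 100 ug/ml for 3 min.

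Mitochondria keep their own ribosomes, which make a few membrane subunits of the respiratory chain and the ATP synthase from mitochondrial DNA. The proteins of these ribosomes are encoded in the nucleus, translated by cytosolic ribosomes and imported. Some have counterparts in bacterial ribosomes and others are found only in mitochondria. The methyl mark m6A (N6-methyladenosine) is placed on mRNA by METTL3 and METTL14 within a short motif, and YTHDF1, a reader of it in the cytoplasm, is known for raising the translation of marked mRNAs. The comparison asks how the mRNAs of this nuclear-encoded machine are translated in control cells and what YTHDF1 knockdown does to them.

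YTHDF1 itself was checked first. Footprints on YTHDF1 stood at 61.4 in the control and at 17.0 and 19.9 in knockdown 1 and 2. Its mRNA stood at 27.4, 8.62 and 7.81, so both knockdown libraries lay below the control in both assays. The adjusted p of limma was 0.552 for footprints and 1.00 for mRNA, so the targeted gene itself did not pass the test with 1 control library per assay. EPCAM, KRT8, KRT18, KRT19 and CDH1, markers of epithelium, were present with mRNA values of 20.1 to 1590 in the control. CDX2, a marker of intestinal epithelium, was low at 3.07, and VIL1 had no row. Of 6 fibroblast markers looked up, 2 were in the table, COL1A1 (control mRNA 1.35) and FN1 (5.01). Of 6 blood markers, 1 was in it, CD68, with a control mRNA value of 19.9, close to CDH1, and 15090 footprint units. The table gives relative values with no named unit, and sequencing depth is unknown. Nothing in the labels shows that the knockdown libraries came from separate cultures, so p-values measure only the spread between these libraries, which may be technical.

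The stretches of DNA before the start sites are shown first, because the choice by symbol did not use them. RefSeq promoter windows (GRCh38.p14, 250 bases before to 50 bases after the start) were matched to 43 of the 47 genes, with no entry for MRPL10, MRPL21, MRPL23 and MRPL35. The ETS core CCGGAAG, on either strand, was in the windows of 20 of the 43 genes (46.5%), against 23.6% of the 5584 matched genes of the table and 10.3% of all 35116 windows. The YY1 motif AAGATGGC was in 9 (20.9%), against 7.4% and 2.89%, and the NRF1 motif GCGCANGCG in 9 (20.9%), against 18.2% and 7.52%. The factors named are known for binding near the start sites of genes for mitochondrial and cytosolic translation. For CACGTG the share was 9.3% against 12.8% of the genes of the table, for TGACGTCA 2.33% against 4.44%, and for CCAAT 30.2% against 43.6%. Both strands were searched for each motif, no motif contains another, and CACGTG and TGACGTCA share the letters ACGT. A match describes letters only, and no binding was measured at these windows. Stretches of 60 bases follow for genes that the results return to, 5′ to 3′ on the gene's strand with the motif in capitals (ETS for MRPL20, MRPL51 and MRPS26, YY1 for MRPL52, NRF1 for MRPL17; CTTCCGG is the reverse complement of the ETS core).
MRPL20, chr1:1407305-1407364, minus strand: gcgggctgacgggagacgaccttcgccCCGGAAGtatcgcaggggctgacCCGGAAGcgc
MRPL51, chr12:6493349-6493408, minus strand: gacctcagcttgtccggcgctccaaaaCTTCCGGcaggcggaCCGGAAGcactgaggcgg
MRPS26, chr20:3045988-3046047, plus strand: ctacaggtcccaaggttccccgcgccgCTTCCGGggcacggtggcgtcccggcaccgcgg
MRPL52, chr14:22829763-22829822, plus strand: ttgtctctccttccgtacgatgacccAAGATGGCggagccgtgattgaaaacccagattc
MRPL17, chr11:6683388-6683447, minus strand: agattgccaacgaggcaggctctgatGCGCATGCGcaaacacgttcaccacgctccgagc
None of the 6 motifs was found for MRPL1, MRPL9, MRPL11, MRPL19, MRPL24, MRPL39, MRPL55, MRPS11, MRPS14, MRPS25 and MRPS35. Among these genes, footprints were lower after knockdown in MRPL55 and higher in MRPS35 (below).

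In control cells the mitochondrial ribosomal protein mRNAs were well expressed and were translated over a wide range. Their control mRNA values ran from 17.6 (MRPL57) to 405 (MRPS34) with a median of 62.5, against a median of 11.6 over the table. Their control footprint values ran from 24.7 (MRPL43) to 1124 (MRPL52) with a median of 161, against 26.5. The footprint to mRNA ratio was used as translational efficiency, on the scale log2((footprints + 1)/(mRNA + 1)). Its median over the 47 genes was 1.19, against 1.08 over the 6782 genes tested, and 25 of the 47 lay above the median gene. The group therefore sat near the middle of the table on this scale, and the difference of 0.11 became 0.36 with a pseudocount of 5 and -0.079 when only genes with a mean log2 value of at least 3 were kept.

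The highest and the lowest control translational efficiency belonged to large-subunit genes. MRPL52 (chromosome 14, 22829887 to 22835037 in GRCh38.p14), a large-subunit protein found only in mitochondria, had 1124 footprint units on 45.1 mRNA units, a ratio of 24.9 that placed it at percentile 99.4 of the genes tested. MRPL47, the counterpart of bacterial uL29, followed with 353 on 39.2 (percentile 94.4), and MRPL51, found only in mitochondria, with 866 on 105 (ratio 8.23). MRPL55 (bL31m) had a ratio of 7.79, MRPL3 (uL3m, a core protein that reaches towards the peptidyl transferase centre) 7.52 and MRPL19 (bL19m) 6.86. The genes behind MRPL52 lay close together, from 6.86 for MRPL19 to 8.23 for MRPL51 and just above for MRPL47, and 1 control library per assay gives no spread by which to order them. At the other end, MRPL43 (chromosome 10, 100977820 to 100987497), a large-subunit protein found only in mitochondria, had 24.7 footprint units on 93.1 mRNA units, a ratio of 0.266 at percentile 2.34. MRPL24 (uL24m) had a ratio of 0.534, MRPS34 (found only in mitochondria) 0.757, MRPS11 (uS11m, of the platform) 0.792, and MRPL11 and MRPL10, which belong to the stalk where translation factors bind, 0.850 and 0.860. In RefSeq MRPL43 overlaps SEMA4G, MRPL24 overlaps HDGF and MRPS34 overlaps EME2, and at the high end MRPL47 overlaps ACTL6A. As the strand of counting is not stated, reads of such overlapping genes cannot be told apart. In all, 11 of the 47 genes overlap another coding gene, MRPL37 (SSBP3) and MRPS25 (NR2C2) among them.

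By role, the median control ratio was 2.38 for the 19 large-subunit proteins with bacterial counterparts, 2.96 for the 13 large-subunit proteins found only in mitochondria, 1.41 for the 8 small-subunit proteins with bacterial counterparts and 2.37 for the 7 found only in mitochondria. Of the 8 small-subunit genes with bacterial counterparts, 2 lay above the median gene, MRPS21 (ratio 5.17) and MRPS7 (2.43). Across the 47 genes the control ratio was lower where control mRNA was higher (Pearson's r -0.51, Spearman's rho -0.56), 2 measures that share the mRNA value, so this is a description and not a test. The order of the genes was held between libraries: the log2 ratio of the control correlated with that of knockdown 1 at r 0.93 and with that of knockdown 2 at r 0.93 over the 47 genes.

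**Figure D1:**
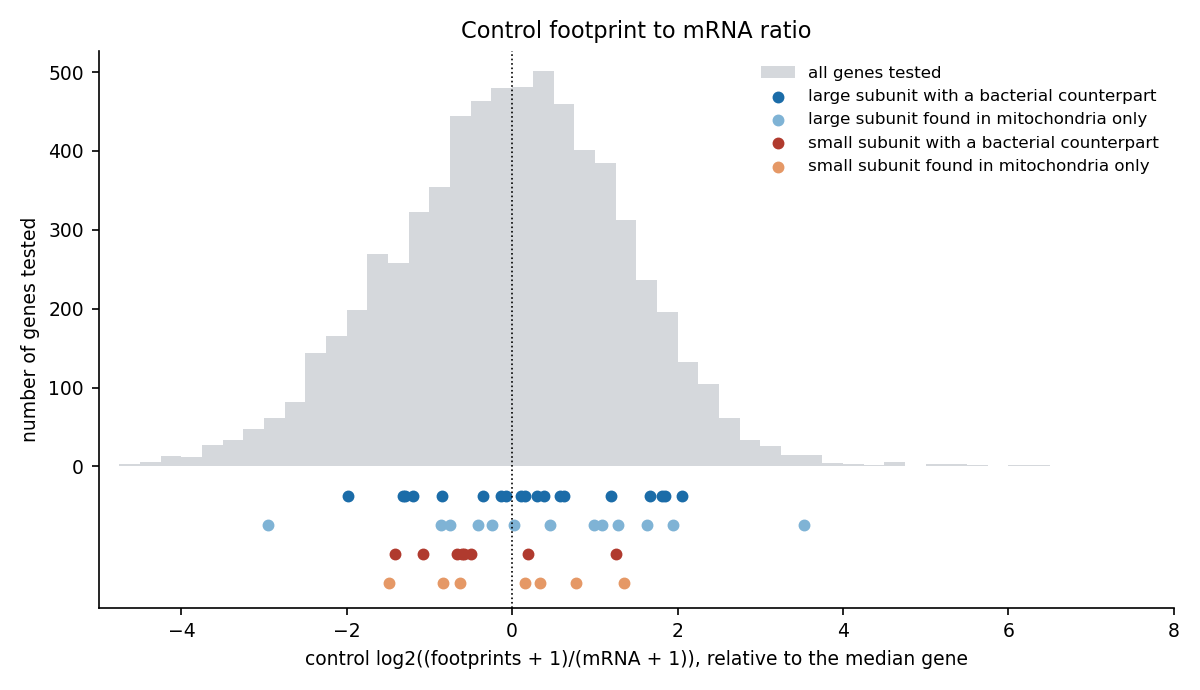
Control footprint to mRNA ratio of the 47 genes (points, 1 row of points per role) below the distribution over the 6782 genes tested (grey bars, number of genes per bin); the x axis is log2((footprints + 1)/(mRNA + 1)) relative to the median gene, marked by the dotted line, and genes beyond the axis are not drawn. The points spread on both sides of the line, from MRPL43 at -2.95 to MRPL52 at 3.53.

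After YTHDF1 knockdown the footprints of most mitochondrial ribosomal protein genes were somewhat lower, as were those of most genes. In 31 of the 47 genes (66%) both knockdown libraries lay below the control, against 51.2% of all genes tested, and in 9 (19.1%) both lay above it, against 17.5%. In the other 7 the control lay between the knockdown libraries. The median footprint change, knockdown minus control, was -0.20 on the log2 scale for the 47 genes and -0.28 for all genes. These sides depend on the scaling of the libraries: after centring each library on its median gene, 12 of the 47 lay below the control in both knockdown libraries and 21 above, and after quantile normalisation 15 and 14. The shares of all genes under these scalings are not given here, so the counts show only how the sides depend on scaling. Relative to the median gene, 26 of the 47 changes were positive and 21 negative. The 2 knockdown libraries differed on this point, since the members' median was -0.10 relative to the median gene in knockdown 1 and 0.14 in knockdown 2.

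No mitochondrial ribosomal protein gene passed an adjusted p of 0.05 for footprints in limma, where 0.0295% of all genes tested did (2 genes). At an unadjusted p of 0.05, 4 of the 47 passed (8.51%), against 8.85% of all genes, which is the background share. These were MRPL55 and MRPS26, which were lower after knockdown, and MRPL20 and MRPL17, which were higher. Changes were mostly small: 32 of the 47 stayed within 0.5 on the log2 scale (54.2% of all genes tested did), and 3 went beyond 1. In bulk libraries such as these, fewer cells of a kind and less RNA per cell cannot be told apart.

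**Figure D2:**
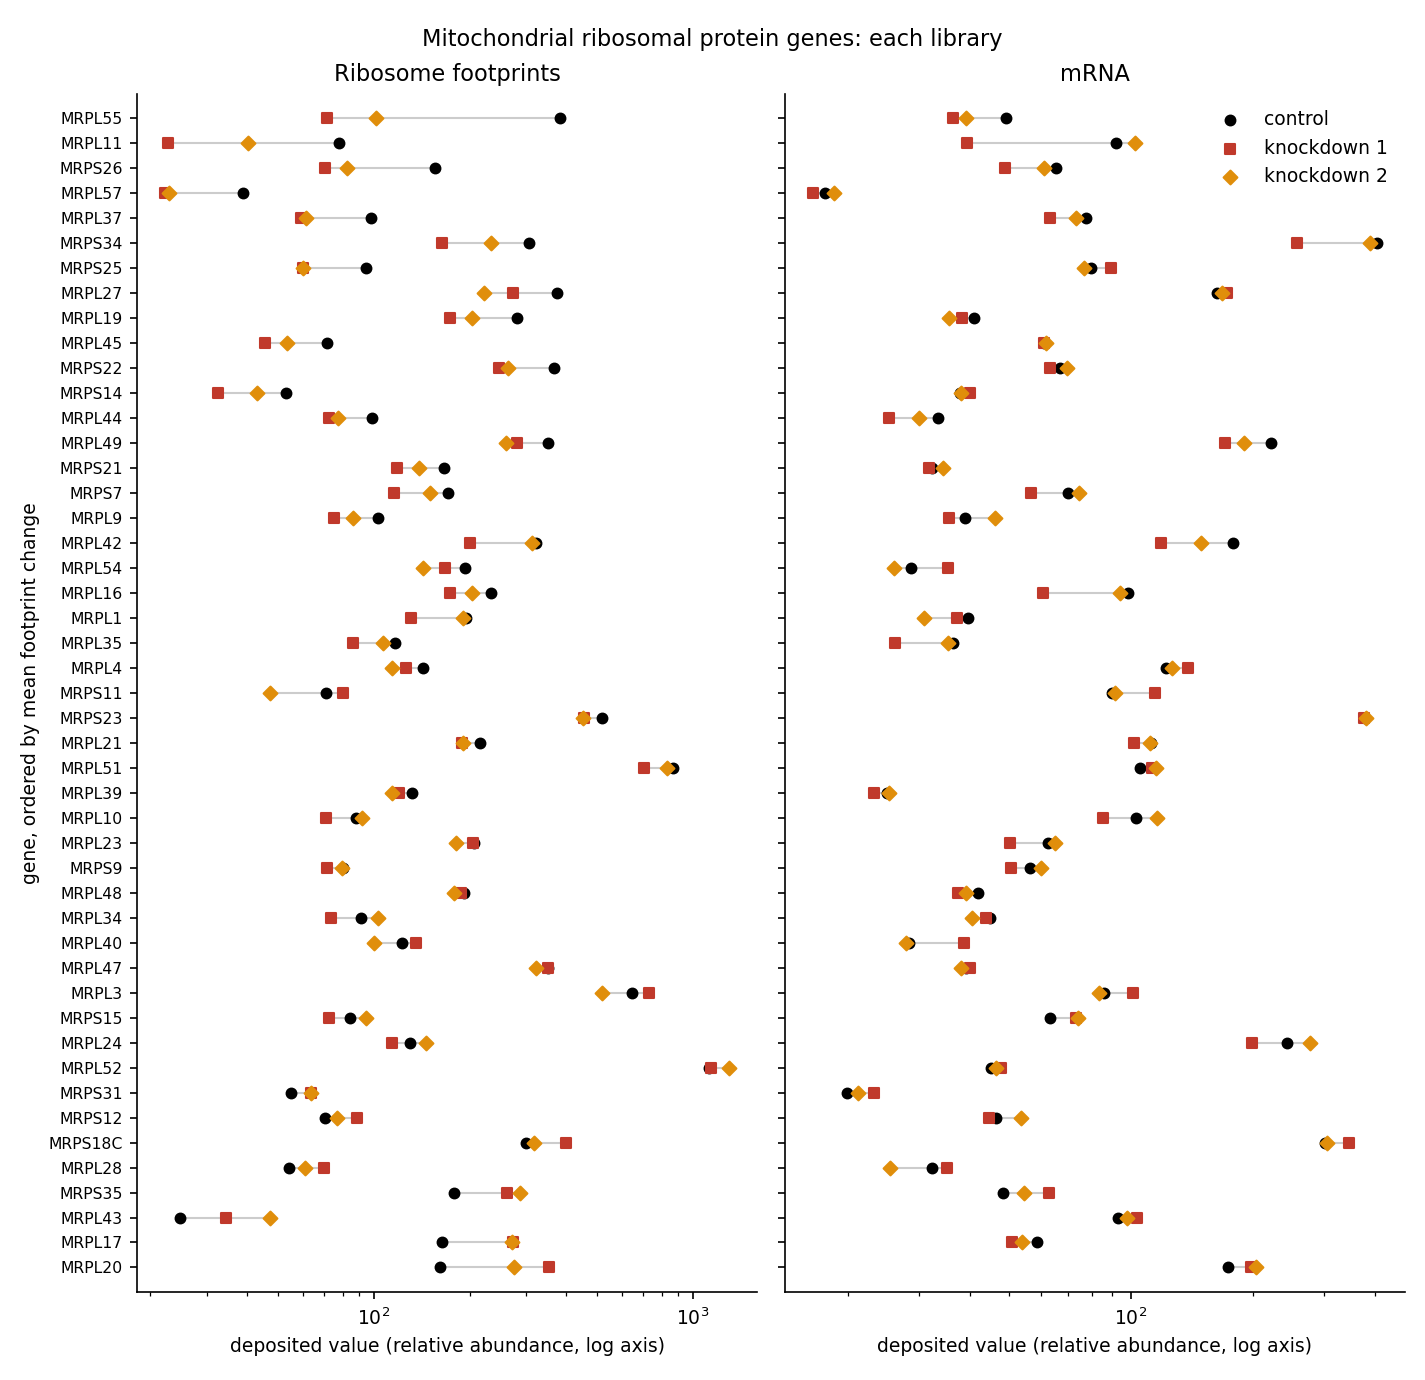
Deposited footprint values (left) and mRNA values (right) of the 47 genes in the control (black circles), knockdown 1 (red squares) and knockdown 2 (orange diamonds), on log axes in relative units, with a grey line from the lowest to the highest library. Genes are ordered by mean footprint change, from MRPL55 (-2.15) at the top to MRPL20 (0.95) at the bottom; footprints move more than mRNA in most rows, and only a few rows show a wide gap between the control and both knockdown libraries.

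Among the large-subunit proteins with bacterial counterparts, both footprint values after knockdown were below the control in 12 of 19 genes and above it in 3, with a median change of -0.18. For this class and the classes below, the shares of all genes tested were 51.2% below and 17.5% above. The class counts use the libraries without further scaling. MRPL55 (bL31m, chromosome 1, 228106685 to 228109299) had the largest difference of the 47. Control footprints of 383 compared with 71.3 in knockdown 1 and 102 in knockdown 2, so the knockdown mean of 86.7 ± 21.7 (SD, n = 2) was 0.226 of the control. Its mRNA value was 49.2, 36.4 and 39.1. The footprint change was -2.15 ± 0.35 (SE) on the log2 scale, with an unadjusted p of 0.000666 and an adjusted p of 0.363 in limma. The adjusted p ranged from 0.0117 to 0.661 over the alternatives and fell below the threshold in 2 of them, one of which leaves out knockdown 2 of the footprint libraries (0.0392). Each footprint group then holds 1 library, the spread comes from the mRNA knockdown libraries alone, and 80 genes of the table pass. MRPL55 thus moved from percentile 92.2 of translational efficiency in the control to 51.7 and 68.8 in the knockdown libraries.

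MRPL11 (uL11m, at the base of the stalk) came next. Control footprints of 78.1 compared with 22.6 in knockdown 1 and 40.5 in knockdown 2, a change of -1.34 ± 0.63 (adjusted p 0.575, limma). For its mRNA the values were 91.9 (control), 39.4 (knockdown 1) and 102 (knockdown 2). The groups did not overlap in footprints, while in mRNA the control lay between the knockdown libraries, and knockdown 1 was the low library in both assays.

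The largest differences in the other direction were in the same class. MRPL20 (bL20m, a protein that bacteria need to assemble the large subunit, chromosome 1, 1401909 to 1407293) had 161 footprint units in the control, against 354 in knockdown 1 and 275 in knockdown 2. Its change was 0.95 ± 0.31 (unadjusted p 0.0187, adjusted p 0.552, limma), while its mRNA values were 174, 198 and 204. MRPL17 (bL17m, chromosome 11, 6680385 to 6683340) had footprint values of 164, 274 and 271, a change of 0.73 ± 0.29 (unadjusted p 0.0453, adjusted p 0.560). Its mRNA values of 58.8, 50.8 and 53.9 lay the other way, with both knockdown libraries below the control. MRPL27 (bL27m), below the control in both libraries, had 374, 274 and 223 footprint units while its mRNA stood at 163, 173 and 168, so its efficiency change was -0.66 ± 0.42 (adjusted p 0.996). MRPL28 (bL28m) had footprint values of 54.2, 69.9 and 60.8. MRPL3 (646, 731 and 520), MRPL10, MRPL24 and MRPL34 overlapped between the groups.

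Among the large-subunit proteins found only in mitochondria, both knockdown footprint values were below the control in 10 of 13 genes and above it in 2, with a median change of -0.32. MRPL57 had 39.0 footprint units in the control, against 22.3 in knockdown 1 and 22.9 in knockdown 2, and MRPL37 had 98.4, 59.4 and 61.3. In both genes the knockdown libraries lay close together below the control, with changes of -0.76 ± 0.38 and -0.70 ± 0.32 and adjusted p-values of 0.577 and 0.575 (limma). MRPL43, the least efficiently translated member in the control, had footprint values of 24.7, 34.5 and 47.4 (change 0.69 ± 0.35, adjusted p 0.577), with mRNA values of 93.1, 104 and 97.6. MRPL52, the most efficiently translated, had 1124, 1142 and 1298 footprint units and mRNA values of 45.1, 47.7 and 46.3, the other gene of this class with both libraries above the control. MRPL45, which helps to hold the ribosome at the inner membrane, had 71.7, 45.6 and 53.7.

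Among the small-subunit proteins with bacterial counterparts, both knockdown footprint values were below the control in 4 of 8 genes and above it in 2, with a median change of -0.14. MRPS14 (uS14m) had footprint values of 53.1, 32.6 and 43.1 and MRPS21 (bS21m) 166, 119 and 139. MRPS12 (uS12m, which lines the decoding centre) had 70.2, 88.7 and 76.8, and MRPS18C (bS18m) 301, 402 and 319. MRPS11 (71.1, 80.3 and 47.3) and MRPS15 (84.4, 72.2 and 94.5) overlapped between the groups, and none of the 8 had an unadjusted p under 0.05.

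Among the small-subunit proteins found only in mitochondria, 5 of 7 genes were below the control in both knockdown libraries and 2 above, with a median change of -0.52. MRPS26 (chromosome 20, 3046052 to 3048250) had 155 footprint units in the control, against 70.2 in knockdown 1 and 82.6 in knockdown 2, a change of -1.02 ± 0.33 (unadjusted p 0.0204, adjusted p 0.552, limma). Its mRNA values were 65.5, 49.0 and 61.1, also below the control in both libraries but by less. MRPS34, a protein needed for a stable small subunit, had 306, 164 and 233 footprint units and 405, 257 and 390 mRNA units. MRPS25 had 94.6, 60.1 and 60.2 footprint units on mRNA values of 79.7, 89.2 and 76.7. MRPS22 had 367, 248 and 264 footprint units. In the opposite direction, MRPS35 had 178, 261 and 288 footprint units (change 0.62 ± 0.30, adjusted p 0.577) on mRNA values of 48.4, 62.7 and 54.4, and MRPS31 had 55.0, 63.6 and 63.8.

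The mRNAs of the mitochondrial ribosomal proteins differed little between the groups. The median mRNA change was -0.01 on the log2 scale, as it was over all genes, and 46 of the 47 stayed within 0.5 (84.9% of all genes tested did). Both knockdown libraries were below the control in 15 genes (31.9%), against 29.9% of all genes, above it in 13 (27.7%), against 30.9%, and on either side of it in 19. Of the 15, 13 were large-subunit genes, and of the 13, 6 were small-subunit genes. No member passed an adjusted p of 0.05 in limma, where 0% of all genes tested did, and none had an unadjusted p under 0.05, against 0.472%. The smallest p among the 47 was 0.296, for MRPL42, a large-subunit protein found only in mitochondria, with mRNA values of 178, 119 and 149. Other members with both knockdown libraries below the control were MRPL16 (uL16m, 98.1, 60.6 and 93.8), MRPL49 (221, 170 and 190) and MRPL44, which has a fold related to ribonuclease III (33.3, 25.2 and 30). In these and in MRPL42 knockdown 1 was the lower of the knockdown libraries. Above the control in both were MRPS35 (48.4, 62.7 and 54.4), MRPS15 (63.2, 73.0 and 73.9), MRPS31 (19.9, 23.2 and 21.2) and MRPL4 (uL4m, 122, 138 and 127). The counts rest on both libraries: with knockdown 1 as the only knockdown library 28 genes were below the control, and with knockdown 2 alone 26 were above it. MRPL11 had the largest mRNA change, -0.52 ± 0.63, which came from knockdown 1 alone.

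The change in translational efficiency is the footprint change less the mRNA change. The test of the difference between the footprint and mRNA changes, an interaction term in the same limma fit, passed an adjusted p of 0.05 for no member and for 0% of all genes. At an unadjusted p of 0.05 it passed for 1 member, MRPL55 (2.13%), against 2.73% of all genes. The MRPL55 change in efficiency was -1.78 ± 0.50 on the log2 scale (adjusted p 0.996, 2 libraries of 2 lower). The median change over the 47 genes was -0.13, against -0.27 over all genes. The knockdown libraries were also paired by their numbers, as a description and without further scaling. Efficiency was then lower in both for 29 of the 47 members, against 52% of all genes, and higher in both for 6, against 18.7% of all genes. MRPL17 went from percentile 60.8 of efficiency to 88.7 and 89.0, and MRPL20 from 20.3 to 47.8 and 42.0. Across the 47 genes the mRNA and footprint changes correlated with r 0.56, and the footprint changes of the 2 knockdown libraries with r 0.84; the second pair shares its control library.

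**Figure D3:**
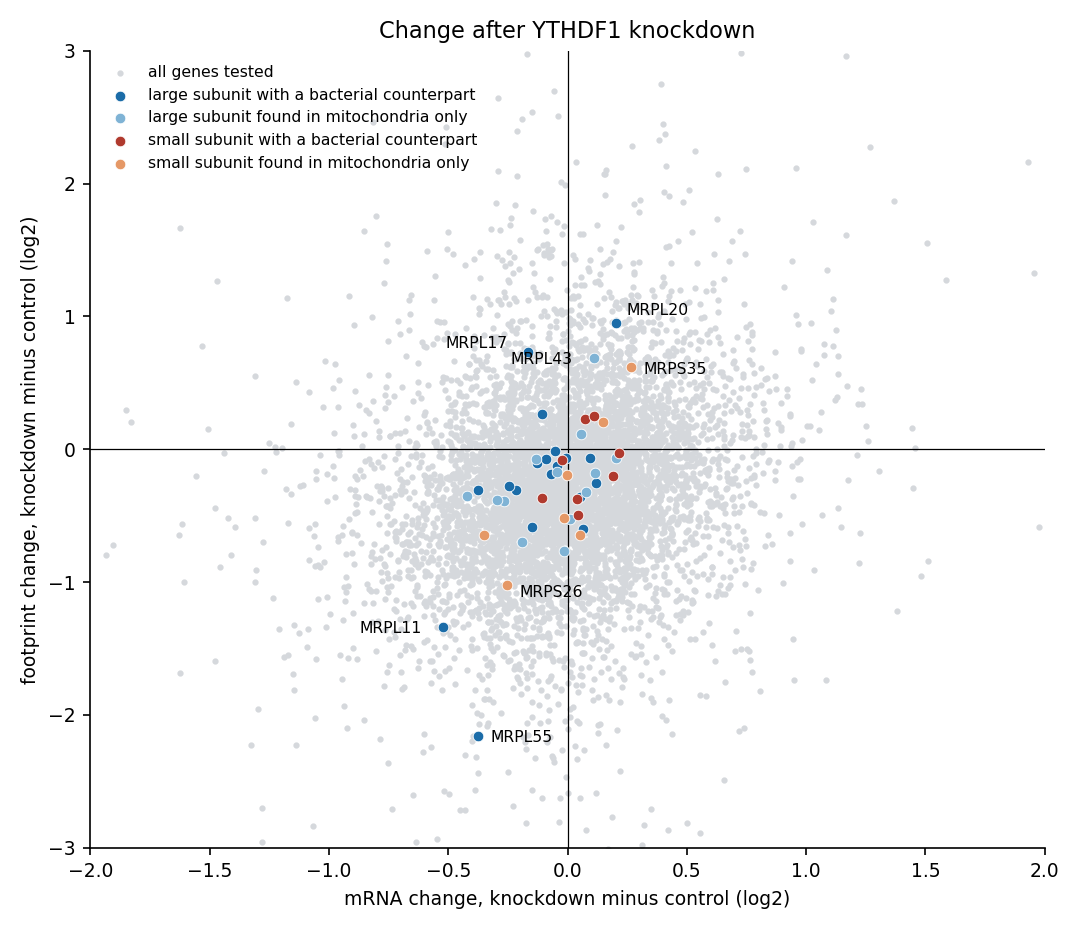
Mean footprint change against mean mRNA change after YTHDF1 knockdown (both knockdown minus control, log2) for the 47 genes by role (coloured points) and all genes tested (grey; 27 genes lie outside the plotted range). The members sit within the cloud of all genes and spread further along the footprint axis, from MRPL55 at -2.15 to MRPL20 at 0.95, than along the mRNA axis.

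Most mitochondrial ribosomal protein mRNAs had an m6A peak, usually in 1 window. Of the 47 genes 31 had a peak in both m6A-seq replicates (66%), against 71.7% of the genes of the table, 4 had one in a single replicate (MRPL28 and MRPL47 in replicate 1, MRPL54 and MRPS25 in replicate 2) and 12 had none. Among the 33 members with a peak in each replicate's list, 24 (72.7%) and 22 (66.7%) had a single peak, against 28.9% and 29.4% of all genes with peaks. The members had on average 1.33 and 1.39 peaks, against 2.89 and 2.86. Members are short genes, with a median span of 9678 bases against 32105, and the part of length in the number of peaks was not tested. The deposited ratio of peak over input, the authors' own value, had a median of 5.63 and 5.53 over the members' peaks, against 5.63 and 5.49 over all peaks of genes in the table.

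The windows were largely the same in the replicates. Of 44 and 46 member peaks, 37 in each list overlapped a peak of the other by at least 1 base, and 17 had the same start and end. These 17 windows also had the same input signal in both lists, as did all 5972 such windows over all genes, so the replicates share their input and are not independent in it. MRPS15 (uS15m) had the highest summed ratio, in 1 window each at 775 to 900 and 750 to 900 bases along the transcript, with ratios of 41.9 and 15.6 on input signals of 21.7 and 68.6. MRPL23 (uL23m, at the exit of the nascent chain) had 1 window at 225 to 325 with ratios of 11.9 and 33.8. The span of MRPL23 overlaps the small nucleolar RNA SNORD131 and the genes MRPL23-AS1, LINC01219, H19 and MIR675. MRPL43 had 1 window at 375 to 525 with ratios of 12.6 and 19.5, and MRPL27 (bL27m, beside the peptidyl transferase centre) had ratios of 11.6 and 15.4. MRPS35 had windows near its 5′ end at 75 to 200 and 75 to 225, with ratios of 7.09 and 6.80 around the motif GGACT, and a second pair from base 1600. MRPS22 had a broad window from base 525 or 575 with ratios of 5.07 and 4.74 and a narrow one at 1275 to 1425 with 12.1 and 10.7. MRPL57 had windows at 575 to 625 (7.01 and 6.59) and at 975 to 1100 (4.45 and 4.68) in both replicates, and MRPS31 shared 1 at 200 to 450 (4.52 and 8.02). MRPL55 had 1 window at 675 to 775 in both replicates, around GGACC, with ratios of 11.4 and 13.5. The MRPL20 window at 500 to 575, also around GGACC, had no input signal, so its ratio is undefined.

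The motif that the lists name for each peak began with GGAC in 14 of 44 and 13 of 46 member peaks (31.8% and 28.3%), against 30.8% and 29.5% of all peaks. In replicate 1 GGACC was named for 7 peaks, more than any other motif, and in replicate 2 for 5, as many as each of 5 other motifs. The named position lay inside the peak's own window in 32 peaks of each replicate (72.7% and 69.6%), against 81% and 81.3% of all peaks.

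**Figure D4:**
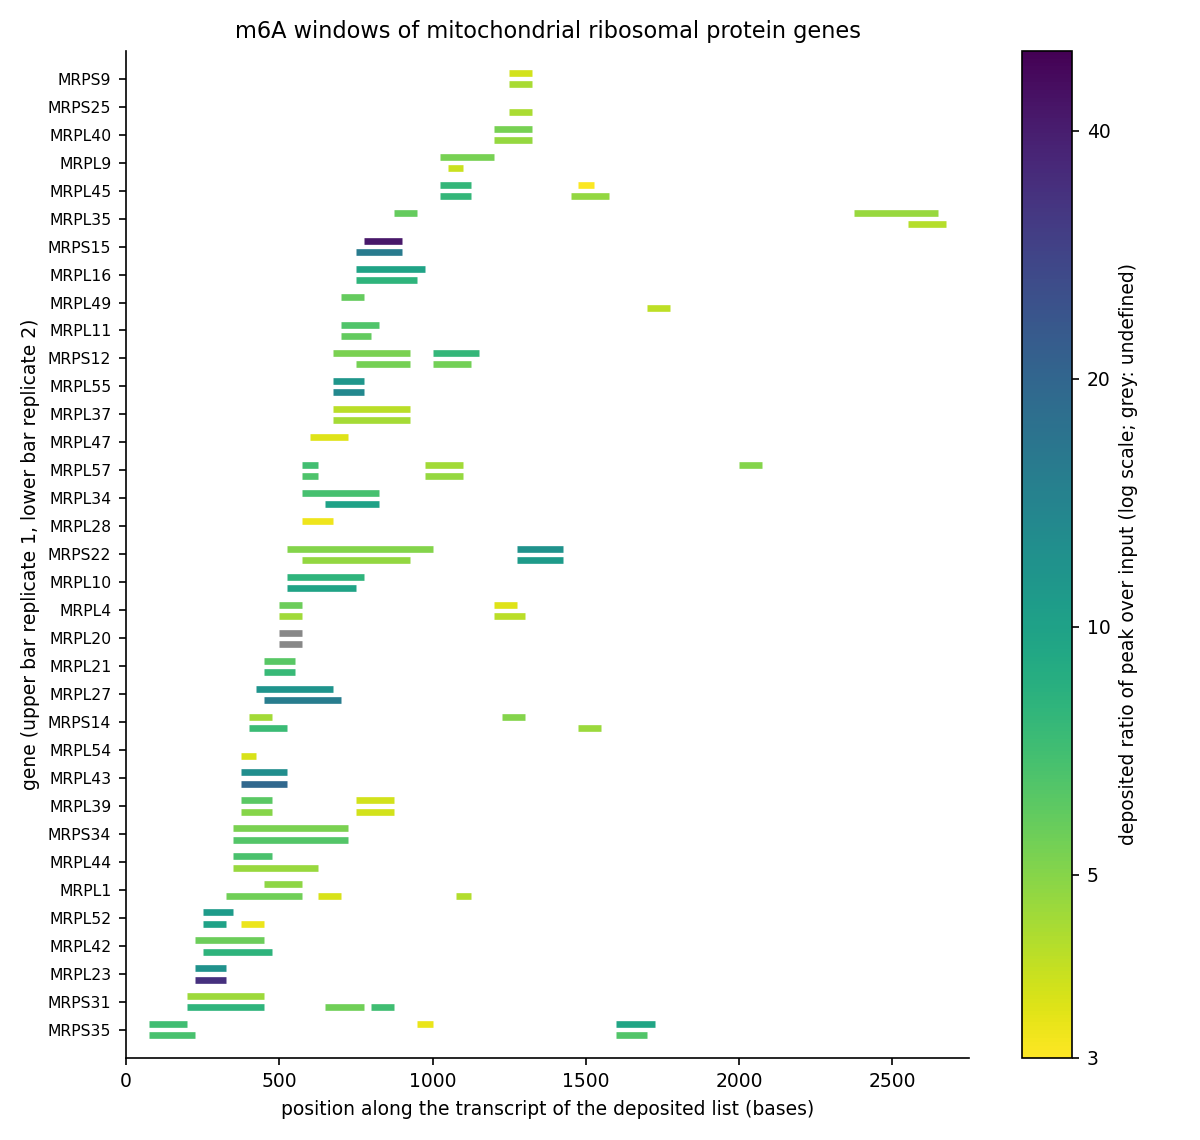
m6A windows of the 35 members with a peak, along the transcript of the deposited lists (x axis, bases), with replicate 1 as the upper and replicate 2 as the lower bar of each gene. Colour is the deposited ratio of peak over input on a log scale, grey where it is undefined (MRPL20); most genes have 1 window in the same place in both replicates, and the darkest bars are those of MRPS15 and MRPL23.

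The footprint changes of members with and without m6A overlapped broadly. The 31 genes with a peak in both replicates had a median change of -0.28 (from -2.15 to 0.95), and 21 of them were below the control in both knockdown libraries. The 12 genes with no peak (MRPL3, MRPL17, MRPL19, MRPL24, MRPL48, MRPL51, MRPS7, MRPS11, MRPS18C, MRPS21, MRPS23 and MRPS26) had a median of -0.19 (from -1.02 to 0.73), with 7 below. Over all genes tested the medians were -0.29 with a peak in both replicates, with 2573 of 4918 genes below, and -0.24 with none, with 537 of 1135 below. The members with the largest differences were on both sides of this split, since MRPL55, MRPL11 and MRPL20 had peaks while MRPS26 and MRPL17 had none. Median control mRNA was 61.0 with peaks and 77.9 without.

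None of the 47 genes was in the deposited list of YTHDF1-bound mRNAs, against 35.3% of the genes of the table (2438 of 6914). The list shows only genes with a ratio of immunoprecipitate over input FPKM of at least 1.5, so the ratio of a gene outside it is not known here, nor is whether it failed on the ratio or on another filter of the list. The share listed was lower among genes like the members: 30.6% of the 2550 genes whose control mRNA value lay within the members' range, 26.7% of the 2282 with a gene span up to the members' upper quartile, and 21.7% of the 1066 with both. The count of 0 comes from 1 immunoprecipitate and 1 input library. The m6A shares in the same sets of genes were 77.3%, 70.5% and 72.7%. All 47 members lay in the first of these sets and 35 in the other 2, with 31 and 22 m6A-marked members in turn.

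RefSeq (GRCh38.p14) names 77 coding genes MRPL or MRPS, and 30 of them had no row under that symbol in the table used. One of the 30, MRPL58, is there under its older symbol ICT1, with footprint values of 279, 210 and 221. Of the 30, 18 had an m6A peak in both replicates, which makes 49 of all 77. Only 1 was in the list of bound mRNAs, MRPL14 (uL14m), with 117 FPKM in the immunoprecipitate and 66.6 in the input. Its ratio of 1.76 in the authors' deposited table ranked 3151 of 3939 listed genes, below the list's median of 2.28.

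Genes that work with the mitochondrial ribosome had footprint medians near or above the -0.28 of all genes tested. The list for other proteins of the mitochondrial ribosome held 7 symbols that do not begin with MRPL or MRPS. One of them, MRP63, is an older symbol of the member MRPL57. The other 6 were in the table (ICT1 among them), 5 below the control in both knockdown libraries and 1 above, with a median footprint change of -0.20. PTCD3 had footprint values of 376, 241 and 178 and CHCHD1 80.0, 173 and 108, the widest changes on either side. Of 11 mitochondrial translation factors 6 were in the table, with a median of -0.11. GFM1, the elongation factor G of mitochondria, had 100, 77.0 and 51.8 footprint units on mRNA values of 17.5, 20.01 and 21.98. The list for mitochondrial aminoacyl-tRNA synthetases held 21 symbols, of which 9 were in the table, with a median of -0.28. The list for mitoribosome assembly and mitochondrial rRNA processing held 37 symbols, of which 16 were in the table, with a median of -0.20. Both lists hold older and newer symbols of some genes, so they name fewer genes than symbols. QRSL1, GATB and GATC on the first list are not synthetases, and none of them was in the table. No gene of these 4 lists passed an adjusted p of 0.05 in any of the 3 tests. For footprints, 8.85% of all genes tested had an unadjusted p under 0.05 in limma, as did 2 genes of these lists. These were CARS2, the synthetase for cysteine, with 111, 47.5 and 55.1 (change -1.10, adjusted p 0.552), and MTG2, a GTPase of large-subunit assembly, with 38.1, 8.80 and 15.2 (change -1.64, adjusted p 0.552, limma).

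The list of YTHDF1-bound mRNAs held some genes of these sets. In it stood 3 of the 9 synthetases (CARS2 with a deposited ratio of 1.56, LARS2 with 2.33 and PARS2 with 2.06) and 5 of the 16 assembly and processing genes (MTERF4, MTG2, RPUSD4, LRPPRC and DHX30, the last with the highest ratio, 3.73). These shares, 33.3% and 31.25%, were near the 35.3% of all genes of the table. None of the 6 translation factors and none of the 6 other proteins of the mitochondrial ribosome were in the list of bound mRNAs. Of the 49 cytosolic ribosomal protein genes in the table, whose near-identical pseudogenes can take part of the reads, 1 was in it (2.04%), and 23 had m6A peaks in both replicates (46.9%), against 66% of the members. Their median footprint change was -0.26, with 30 of 49 below the control in both knockdown libraries and 8 above, and their control efficiency had a median of 0.94, against 1.19 for the mitochondrial set on the same log2 scale. No test between these sets was made.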

How the data were processed

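Groups came from the sample labels, which cover ribosome profiling (3 libraries), mRNA-seq (3), RIP with input (1 each) and m6A-seq (2). Per the submitters' processing notes STAR and GRCh38 were used, and a peak caller and versions were not given in the sources used here. Footprint and mRNA values are a deposited signal per gene with no named unit, all at least 0.5 in the control, and without read counts they were tested on a log scale. For RIP the authors deposited FPKM of immunoprecipitate and input and the ratio of the 2, where that ratio is at least 1.5. The m6A lists hold the authors' deposited signal in immunoprecipitate and input and their ratio, with positions along an unnamed transcript.

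Values were taken as log2(value + 1), and fold changes of low genes are understated on this scale. Genes with a mean log2 value under 1 (132) and 12 rows with damaged names were left out. All 47 members passed. One limma-trend model (limma 3.58.1, R 4.3.3) with 4 group means and 2 residual degrees of freedom gave footprint, mRNA and efficiency (interaction) changes, adjusted by Benjamini-Hochberg over 6782 genes. The spread came from the knockdown libraries, and the fit applies it to the single controls too. The model was also run on simulated data with a spread smaller than the fitted one and large planted footprint falls. That run cannot show how well the fit finds small changes in these libraries. Named genes were MRPL55, which earlier results already named, the 6 members with the largest changes in each direction per test where the control lay outside the range of the knockdown values, the 6 highest and 6 lowest in control efficiency, and the 8 with the highest summed m6A ratio; MRPL45, MRPS7, MRPS12, MRPS14, MRPS21 and the non-members were named after their values were seen. The members, lists and motifs were chosen with earlier results of these data known, and the sets of genes matched on mRNA value and span and the split by m6A were described after seeing the data. Alternatives were other pseudocounts, filters and scalings, a replicate block, each assay alone and leaving out each knockdown library.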

Additional observations from a re-analysis of the deposited data

How the results depend on the processing

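Of the values recomputed under each alternative, counts and medians of the whole set among them, 461 stayed on their side and near their value and 16 moved. Another 2, both for MRPL55 footprints, passed the threshold only under an alternative, and 1, the efficiency change of MRPS18C, changed sign. The footprint count of 0 members at an adjusted p of 0.05 became 1 (MRPL55) with a replicate block in the limma fit (30 genes over the table) and ranged from 0 to 1 when 1 knockdown library was left out (1 without knockdown 2 of the footprints, where the spread rests on the mRNA libraries and 80 genes pass over the table). The titles give the knockdown libraries the same numbered names in both assays, but no label says that same-numbered libraries share a culture or batch. Knockdown 1 minus knockdown 2 correlated between the assays with r 0.37 over all genes and 0.56 over the members, as a description of 2 pairs; the block changed no other call of a member. Leaving out 1 library, the members' median relative to all genes ranged from -0.10 to 0.14 for footprints, from -0.047 to -0.0083 for mRNA and from 0.015 to 0.22 for efficiency, and the mRNA counts from 15 to 28 (lower) and from 13 to 26 (higher). Footprints lower in both libraries numbered 31, but 12 with median centring and 15 with quantile normalisation. Those higher in both numbered 9, but 21 and 14. The shares of all genes under these scalings are not given here. Control efficiency relative to the median gene was 0.36 with a pseudocount of 5 and -0.079 with a mean log2 value of at least 3. With a ratio of at least 5 in both replicates, 19 members had m6A, and the share of all genes at that ratio is not given here. The efficiency change of MRPS18C ranged from -0.028 (without knockdown 1 of the footprints) to 0.30 when 1 library was left out. The causes were not tested. With 1 control library per assay and unknown depth, small changes could not be told from library differences.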
